A study of Mus musculus with 6 samples.

Results

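The cytosolic ribosomal proteins were followed here on Illumina bead arrays of the mouse ventromedial hypothalamus, as every probe whose gene symbol is Rpl or Rps with a number, Rplp0, Rplp1, Rplp2 or Rpsa. Symbols that begin with Rps6k, which are kinases, were left out. The rule took 96 of the 45281 probes on the array, for 65 of 19057 gene symbols. In the SIRT1 deletion group, 3 RNA pools came from mice of 16 weeks with the genotype Sf1-Cre; Sirt1loxP/loxP, in which Cre under the Sf1 (Nr5a1) promoter deletes the NAD-dependent deacetylase Sirt1 in SF1 neurons. The control group was 3 pools from mice of the same age with the genotype Sirt1loxP/loxP and no Cre. Both groups had a mixed genetic background and both carried the floxed Sirt1 alleles, and each pool was hybridised to 1 array. The sources used here give neither the mice per pool nor their sex, and a p-value here speaks only of the variation among the 6 pools. The tissue also holds glia and neurons that do not express Cre, and in such bulk samples fewer cells of a type and less RNA per cell cannot be told apart.

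The cytosolic ribosome joins a small subunit, which reads the mRNA, to a large subunit, which forms the peptide bond. Each subunit is built from ribosomal RNA and a set of proteins that nearly all cells make in matched amounts, and many of the proteins are encoded by single active genes with numerous processed pseudogene copies. Their mRNAs typically begin with a 5′ terminal oligopyrimidine (TOP) tract, a C followed by an unbroken run of C or T, through which the kinase complex mTORC1 controls their translation in response to nutrients. In human cells SIRT1 has been described as part of a complex that silences ribosomal DNA, and Rps19bp1, which the name rule also selects, is known as the SIRT1 activator AROS. Rps19bp1 is no ribosomal protein.

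The tract is shown for 5 of the genes whose start in the RefSeq annotation of GRCm38.p6 falls on it. It is a feature that the name rule did not use, and these genes were picked for having it. Each line gives 20 bases before and 10 bases from the annotated start on the transcript's strand, with the unbroken run of C and T from the start in capitals as far as the window shows it.
Rpl28 (chr7:4792945-4792974, plus strand): tcgtcccgcctctcgtgtctCTCTTTCCgt
Rpl35 (chr2:39005122-39005151, minus strand): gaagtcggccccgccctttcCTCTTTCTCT
Rpl38 (chr11:114668560-114668589, plus strand): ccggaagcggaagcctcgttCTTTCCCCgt
Rps6 (chr4:86857358-86857387, minus strand): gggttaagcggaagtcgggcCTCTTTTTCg
Rps10 (chr17:27635235-27635264, minus strand): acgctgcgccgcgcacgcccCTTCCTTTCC
The runs have lengths of 8 bases in Rpl28, 11 in Rpl35, 8 in Rpl38, 9 in Rps6 and 10 in Rps10. Promoter sequences were found for 54 of the 65 genes. A run of at least 5 bases that opens with C exactly at an annotated start was present in 9 of the 54 genes (16.7%), against 3.01% of all 27025 genes with a promoter sequence. Within 10 bases of a start, such a run began in 34 of the 54 (63%), against 34.4% of all genes. The letters CGGAAGT, which factors of the ETS family such as GABP can bind, were found on either strand from 250 bases before to 50 bases after a start in 37% of the member genes and in 7.2% of all genes. The letters TATAAA were found in 11.1% and 15.7%, and AAGATGGCG, part of the YY1 motif, in 3.7% and 1.64%. These are matches of letters in the annotated windows and do not show binding, and annotated starts can lie some bases from the starts used in this tissue.

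No tested probe for a cytosolic ribosomal protein mRNA differed detectably between SIRT1 deletion and control pools. Probes were tested where their detection p-value was under 0.05 on at least 3 of the 6 arrays, which 77 of the 96 member probes met, for 57 of the 65 genes. Of these 77, none passed an adjusted p of 0.05 (limma, Benjamini-Hochberg over all 20402 tested probes), where 0.049% of all tested probes did. At an unadjusted p under 0.05, 5 member probes (6.49%) differed, 2 higher and 3 lower in the deletion pools, where 8.47% of all tested probes differed, 4.49% higher and 3.98% lower. The lowest adjusted p of a member was 0.535 and, over all 19 alternative settings, 0.15. The median log2 difference, deletion minus control, was 0.013 over the member probes and -0.0030 over all tested probes, and the members ranged from -0.35 to 0.32. The log2 difference was above 0 in 42 of the 77 and in 49% of all tested probes. Leaving out pools moved the count of higher members at unadjusted p under 0.05 to 0 without SIRT1 deletion 2, 1 without SIRT1 deletion 3, 0 without control 2 and 4 without control 3, and the count of lower members to 0 without control 2.

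The intervals bound the size of a difference that these pools allow. In 74 of the 77 member probes (96.1%) the 95% interval, not adjusted for the number of probes, lay within a 1.5-fold change in either direction, against 89.3% of all tested probes. The 3 exceptions, named for their intervals after the values were seen, were both Rpl29 probes and the only Rps3a1 probe. The median distance from the estimate to the end of its interval was 0.22 for the members and 0.25 for all tested probes, on the log2 scale. The members' probes lay high in the intensity range of the arrays (median log2 intensity 11.98, against 7.01 for all tested probes), a property of probes that also depends on how each one hybridises. Among probes with a control mean of 10 or more, the median SD within groups was 0.073 for 49 member probes and 0.088 for all 2610 such probes.

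**Figure D1:**
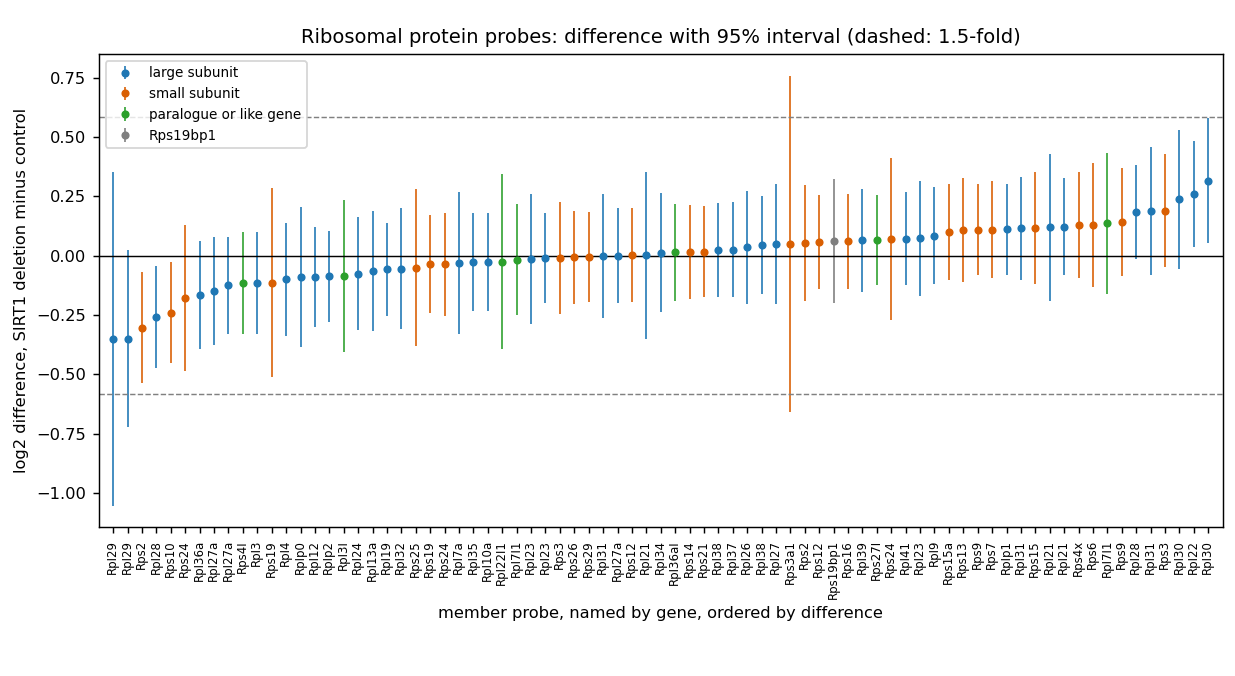
Log2 difference (SIRT1 deletion minus control) of the 77 tested member probes in order of size, with 95% intervals from limma. Colours mark the large subunit, the small subunit, paralogues and Rps19bp1, and dashed lines mark 1.5-fold. Most intervals cross 0, 74 lie within the dashed lines, and those of Rpl29 and Rps3a1 reach beyond them.

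The array facts that bear on these values were few. Between 20053 and 20474 probes were detected in deletion pools and between 20123 and 20611 in control pools. The deletion arrays were dimmer before normalisation, with median raw signals of 140.4 to 142.1 in deletion and 145.5 to 149.4 in control pools. The background-corrected log2 difference before normalisation was -0.17 for the median member and -0.16 for the median of all tested probes, while on the raw log2 scale, without background correction, these were -0.15 and -0.10. Normalisation of this kind measures each mRNA relative to the others on its array and cannot show a change in the amount of all mRNA or of ribosomes per cell. The targeted gene Sirt1 had log2 intensities of 7.77, 7.68 and 7.51 in deletion pools and 7.81, 7.62 and 7.64 in control pools. Its log2 difference was -0.034 (95% interval -0.27 to 0.21, limma adjusted p = 0.943, exact two-sided permutation p = 0.9), with overlapping groups, and turned positive without SIRT1 deletion 3 (0.039) or control 1 (0.027). Where its 1 tested probe lies with respect to the deleted exons is not stated in the sources at hand, and the tissue holds cells without Cre, so this value is no check of the labels.

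The median normalised mRNA signal of the member probes varied by small amounts between pools of the same group. Because each pool was 1 array, a shift of these mRNAs and array variation cannot be told apart, and neither was tested. Each probe's deviation from its own mean over the 6 pools had a median over the members of 0.035, -0.026 and 0.029 in SIRT1 deletion 1, 2 and 3. In controls 1, 2 and 3 it was 0.015, -0.048 and 0.0082. The lowest pool of each group, SIRT1 deletion 2 and control 2, had 45 and 48 of the 77 probes below their own means. The median over all tested probes stayed within 0.0044 of 0 in every pool, but quantile normalisation holds that median near 0 in advance. It is therefore no contrast to the members.

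**Figure D2:**
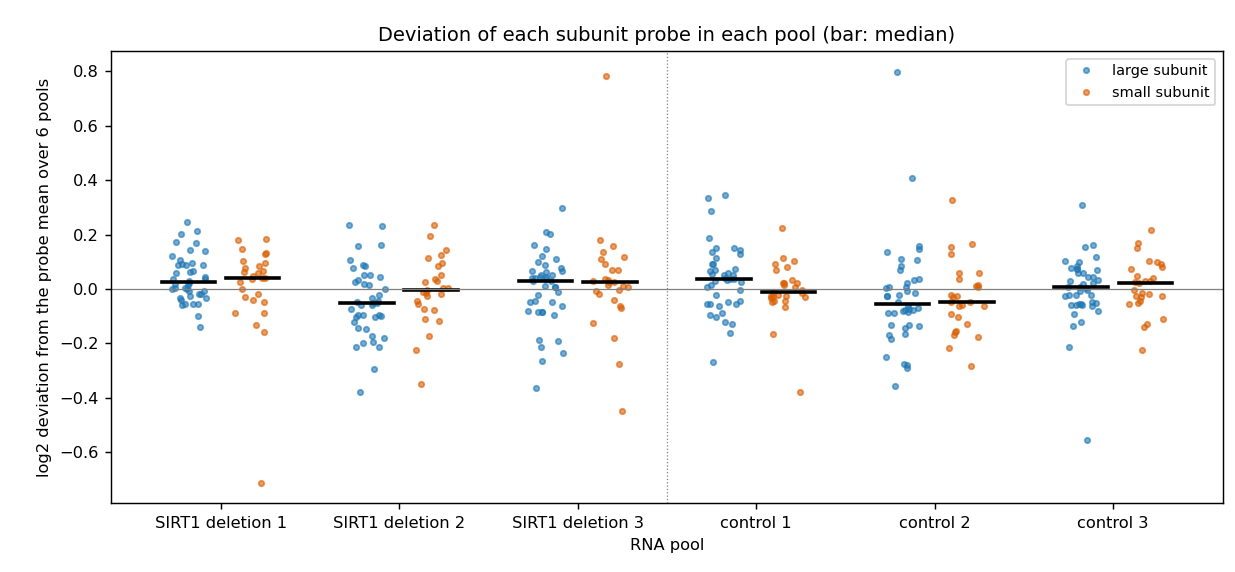
Log2 deviation of each large and small subunit probe from its own mean over the 6 pools, by RNA pool, with deletion pools on the left and the median of each subunit as a bar. The bars of SIRT1 deletion 2 for the large subunit (-0.051) and of control 2 for both subunits (-0.055 and -0.048) lie lowest, and the groups overlap.

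The small subunit carries the decoding site and the mRNA channel. It was measured by 27 tested probes of 20 genes, of which 17 were higher and 10 lower in deletion pools, with a median log2 difference of 0.050 (range -0.30 to 0.19). At unadjusted p under 0.05 there were 0 higher and 2 lower probes, where 4.49% of all tested probes were higher and 3.98% lower. Under median scaling of the arrays in place of quantile normalisation this median was -0.14 and that of all probes -0.12, so its sign depends on the scaling.

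Rps2, a protein at the entrance of the mRNA channel, had the lowest p of all members by its probe ILMN_2717549. The log2 intensities were 13.63, 13.67 and 13.61 in deletion pools and 13.87, 14.12 and 13.84 in control pools. All deletion pools lay below all control pools. The log2 difference was -0.30 (95% interval -0.54 to -0.071, limma unadjusted p = 0.0163, adjusted p = 0.535) and -0.50 under median scaling. A second Rps2 probe, ILMN_2946616, had 13.38, 13.24 and 13.16 in deletion pools and 13.17, 13.36 and 13.09 in control pools, with overlapping groups and a log2 difference of 0.053, which became -0.14 under median scaling. The estimates of the 2 probes had opposite signs in the main processing, while their 95% intervals overlapped. The difference between the 2 probes was not tested. RefSeq lists 12 pseudogenes named after Rps2, and probe sequences were not used here, so which copies each probe detects is not settled.

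Rps10, also of the small subunit, had 11.61, 11.51 and 11.73 in deletion pools and 11.84, 11.89 and 11.84 in control pools. The groups did not overlap and the log2 difference was -0.24 (95% interval -0.45 to -0.029, limma adjusted p = 0.561), or -0.41 under median scaling. Groups did not overlap with deletion below control in 6 of the 77 members, where 6.84% of all tested probes behaved so, and with deletion above control in 7, where 7.15% did. Both shares, 7.79% and 9.09%, were near that background.

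**Figure D3:**
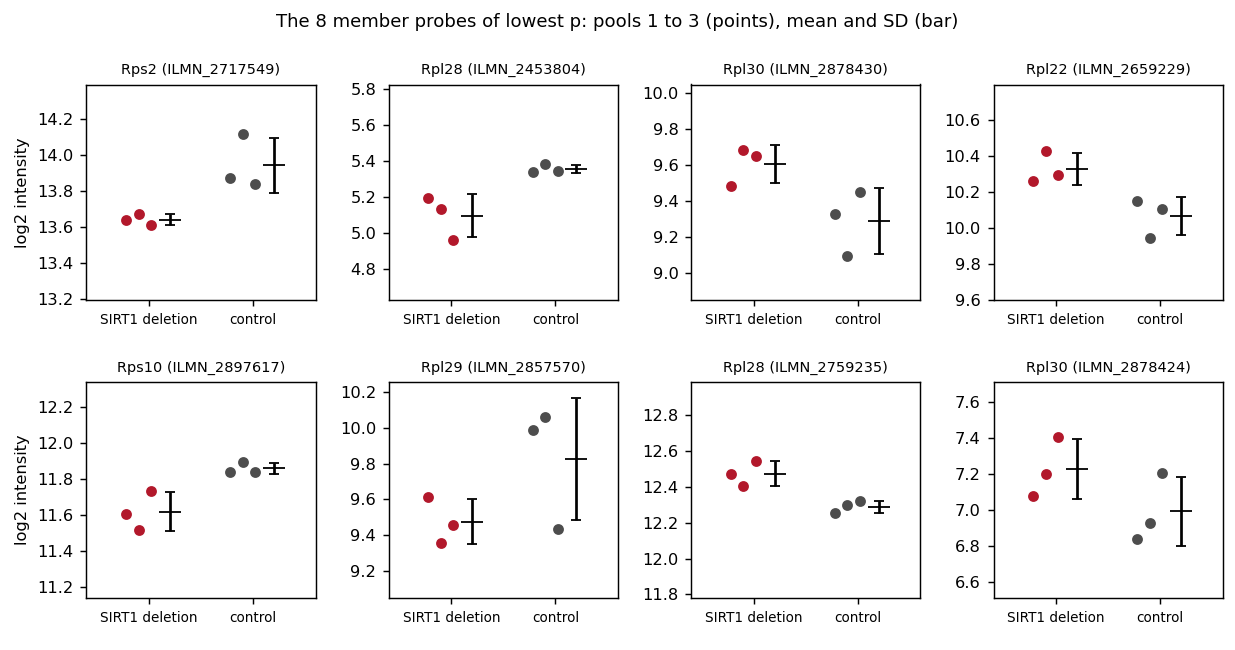
Log2 intensity of the 8 member probes of lowest unadjusted p in the 3 SIRT1 deletion pools (left) and the 3 control pools (right), with the group mean and SD as a bar. Every panel spans the same range of 1.2 log2 units. Groups are apart for the first 5 probes and for the second Rpl28 probe, and overlap for Rpl29 and for the second Rpl30 probe.

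Rps6, the substrate of the S6 kinases downstream of mTORC1, had 12.56, 12.58 and 12.51 in deletion pools and 12.60, 12.20 and 12.46 in control pools. The groups overlapped and the log2 difference was 0.13 (95% interval -0.13 to 0.39), which became -0.034 under median scaling. Rps3, which lines the mRNA entry and also takes part in DNA repair, had 11.95, 12.20 and 12.03 in deletion pools and 11.98, 11.79 and 11.83 in control pools by the probe ILMN_2594103. Its difference was 0.19 (95% interval -0.047 to 0.43, and 0.018 under median scaling) with overlapping groups, and the second Rps3 probe had -0.0092. Rps19, whose human counterpart is mutated in Diamond-Blackfan anaemia, had a difference of -0.036 by its bright probe (mean 13.21 ± 0.075 in deletion and 13.25 ± 0.070 in control pools, SD, n = 3 each). Its dim probe, detected on 2 of the 3 deletion arrays, had -0.11.

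Both Rps9 probes had positive differences of 0.14 and 0.11, which became -0.031 and -0.075 under median scaling. Of the 3 tested probes of Rps24, the one of lowest p had -0.18 and the others -0.036 and 0.068. Their intervals all include 0. Rps9 and Rps24 are both proteins that act early in small subunit assembly.

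The large subunit was measured by 42 tested probes of 30 genes, split evenly with 21 higher and 21 lower in deletion pools, and a median log2 difference of -0.00092 (range -0.35 to 0.32). At unadjusted p under 0.05, 2 were higher and 1 was lower, beside the same 4.49% and 3.98% of all tested probes. Under median scaling the median was -0.16, and at unadjusted p under 0.05 it gave 18 lower (23.4%) and 0 higher probes among all 77 members, where 18.2% and 1.49% of all tested probes were.

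Rpl30, a small RNA-binding protein that in yeast represses the splicing of its own transcript, had the highest difference of all members. Its probe ILMN_2878430 had 9.48, 9.68 and 9.65 in deletion pools and 9.32, 9.09 and 9.45 in control pools. The groups did not overlap, although SIRT1 deletion 1 and control 3 differed by little. The log2 difference was 0.32 (95% interval 0.051 to 0.58, limma adjusted p = 0.542). The second Rpl30 probe had the same direction, with a difference of 0.24 (95% interval -0.056 to 0.53) and overlapping groups, and both probes stayed positive in every alternative that kept them, with ranges of 0.16 to 0.40 and 0.11 to 0.34. RefSeq lists 10 pseudogenes named after Rpl30.

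Rpl22, an RNA-binding protein of the large subunit whose paralogue Rpl22l1 can take its place, had 10.26, 10.43 and 10.29 in deletion pools and 10.15, 9.94 and 10.10 in control pools. All deletion pools lay above all control pools. The log2 difference was 0.26 (95% interval 0.036 to 0.48, limma adjusted p = 0.551), or 0.085 under median scaling. Rpl22l1 had 6.09, 5.78 and 6.47 in deletion pools and 6.22, 6.16 and 6.03 in control pools, a difference of -0.026 (95% interval -0.40 to 0.34) with overlapping groups. The difference between the 2 genes' responses was not tested.

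The 2 probes of Rpl28 went in opposite directions. ILMN_2453804 had 5.19, 5.13 and 4.96 in deletion pools and 5.34, 5.38 and 5.34 in control pools, and ILMN_2759235 had 12.47, 12.41 and 12.54 in deletion pools and 12.25, 12.30 and 12.32 in control pools. Neither pair of groups overlapped, and the log2 differences were -0.26 (95% interval -0.48 to -0.045) and 0.18 (95% interval -0.014 to 0.38), both with a limma adjusted p above the threshold (0.542 and 0.594). The dim probe's difference was -0.064 without background correction, and the bright probe's was 0.014 under median scaling. The dim probe was close to background, since the dimmest detected probe of an array had 4.87 to 4.90 in deletion pools and 4.86 to 4.89 in control pools.

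Rpl29 was among the most variable members. Its probe ILMN_2857570 had 9.61, 9.36 and 9.46 in deletion pools and 9.99, 10.06 and 9.44 in control pools, and ILMN_2730005 had 7.34, 6.74 and 6.76 in deletion pools and 7.41, 7.92 and 6.56 in control pools. By both probes controls 1 and 2 lay above all deletion pools, though control 1 only by little for ILMN_2730005. Control 3 lay within the range of the deletion pools for ILMN_2857570 and below them for ILMN_2730005, so the groups overlapped. Both log2 differences were -0.35, with 95% intervals of -0.72 to 0.022 and -1.05 to 0.35, and that of ILMN_2857570 was -0.54 without control 3. Rps3a1, a small subunit protein, had 7.42, 8.13 and 8.92 in deletion pools and 8.22, 8.19 and 7.91 in control pools. Its spread within groups was the widest of all members (SD 0.543) and its difference 0.050 (95% interval -0.66 to 0.76). The Rpl29 probe ILMN_2730005 had nearly the same spread (SD 0.539), and its interval reached further from 0.

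Other large subunit probes among the 10 of lowest p in either direction had smaller differences. Rpl36a, whose gene is X-linked, had -0.17, Rpl3, which lies close to the peptidyl transferase centre, had -0.12, and 2 of the 3 tested Rpl27a probes had -0.15 and -0.12 while the remaining one had 4.0e-05. The most positive of 3 Rpl31 probes had 0.19, beside 0.11 and -0.0019, and 1 Rpl21 probe had 0.12, which became -0.0074 under median scaling. All their 95% intervals include 0. RefSeq lists 24 pseudogenes named after Rpl31 and 15 named after Rpl21.

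**Figure D4:**
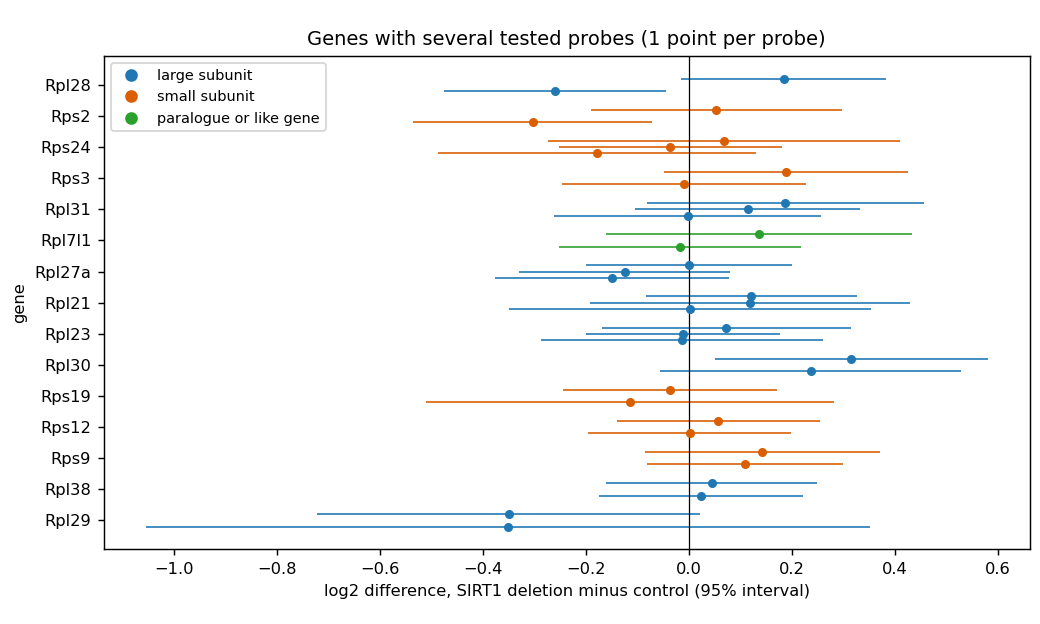
Log2 difference (SIRT1 deletion minus control) with 95% intervals for each probe of the 15 genes with several tested probes, ordered by the spread between probes. Probes of Rpl28 and Rps2 lie on opposite sides of 0, and those of Rpl29 and Rpl38 lie closest to each other.

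Of the 22 genes with several probes, 15 had several tested probes, and the sign differed between probes in 8 of them. Only Rpl28 and Rps2 had probes of opposite sign that were more than 0.3 apart (0.44 and 0.36). The smallest spreads were 0.00095 in Rpl29 and 0.021 in Rpl38.

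The stalk proteins recruit translation factors to the large subunit. Rplp1 had 15.10, 15.07 and 15.10 in deletion pools and 14.94, 14.97 and 15.03 in control pools. Its log2 difference of 0.11 (95% interval -0.081 to 0.30) with groups that did not overlap became -0.14 under median scaling, and its raw signals ran the other way, at 31332 to 33185 in deletion and 34504 to 36391 in control pools. Rplp2 had 12.79, 12.71 and 12.78 in deletion pools and 12.86, 12.81 and 12.88 in control pools, a difference of -0.088 (95% interval -0.28 to 0.10) without overlap of the groups. Rplp0 had 6.92, 6.74 and 6.97 in deletion pools and 6.82, 6.85 and 7.23 in control pools by its 1 tested probe, a difference of -0.091 with overlap. These proteins thus had small differences of mixed sign, none past the threshold.

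**Figure D5:**
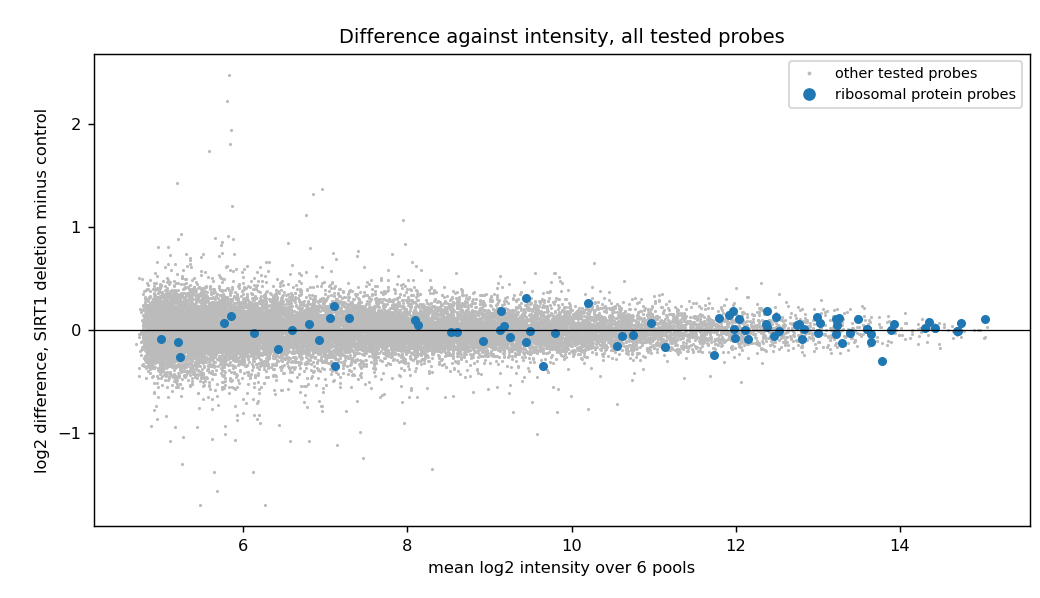
Log2 difference (SIRT1 deletion minus control) against mean log2 intensity over the 6 pools for all 20402 tested probes (grey) and the 77 member probes (blue). The members lie mostly at the bright end and between -0.35 and 0.32.

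Paralogues and variants that can replace a ribosomal protein or that resemble one were measured by 7 tested probes of 6 genes, with a median log2 difference of -0.017 and 0 probes at unadjusted p under 0.05. Rps27l, a paralogue of Rps27 that p53 induces in human cells, had 10.99, 11.00 and 11.02 in deletion pools and 10.95, 10.91 and 10.95 in control pools. It had the smallest spread within groups of all members (SD 0.020), and its groups did not overlap, but the difference was 0.066 (95% interval -0.12 to 0.25) and became -0.11 under median scaling. Rps4l, whose probe is annotated with a non-coding RNA record, had -0.12. Rpl36al, the autosomal copy of Rpl36a, had 0.013, and the probes of Rpl7l1, a nucleolar relative of Rpl7, had 0.14 and -0.017. Rpl3l, the paralogue of Rpl3 known from skeletal and heart muscle, was near background, detected on 2 of 3 deletion and 3 of 3 control arrays, with a difference of -0.085. Rpl39l, known from testis, was not above background on any array. Rps19bp1 had 6.61, 6.94 and 6.94 in deletion pools and 6.70, 6.84 and 6.78 in control pools, with overlapping groups and a difference of 0.059 (95% interval -0.20 to 0.32), which became -0.062 under median scaling.

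The 19 member probes that were not tested were detected on 0 arrays (15 probes) or on 1 array (4 probes). For 8 genes no probe was tested, namely Rpl6, Rpl14, Rpl17, Rpl39l, Rps20, Rps23, Rps23rg1 and Rpsa, the laminin receptor homologue of the small subunit. Since most of these proteins belong to every ribosome, a probe that was not well above background does not show that its gene was silent. Rplp0, Rplp2, Rpl4 and Rps13, for example, each had 1 tested probe and 1 probe that was not detected on any array.

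Genes of the wider pathway showed no called difference either. In a list of translation factors and of genes known for TOP mRNAs, 60 probes of 31 genes were tested. Whether each of these genes has the tract was not examined. Of the probes, 35 were higher and 25 lower in deletion pools, with a median log2 difference of 0.038 and 4 in each direction at unadjusted p under 0.05. Of all tested probes 4.49% were higher and 3.98% lower at that p. The probes of lowest p were those of Eif3k (-0.61), an initiation factor subunit, Hnrnpa1 (0.35), an RNA-binding protein, and Eif4b (0.33), an initiation factor. A second Eif3k probe had 0.025 and a second Eif4b probe 0.073, and 2 further Hnrnpa1 probes had 0.095 and 0.096. The limma adjusted p-values of the first-named probes of Eif3k, Hnrnpa1 and Eif4b were between 0.52 and 0.544. Without background correction the differences of Eif3k and Eif4b were -0.17 and 0.099, and that of Hnrnpa1 was 0.21 under median scaling. That of Eif3k was -0.37 without SIRT1 deletion 3.

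Of 59 probes for 35 ribosome assembly factors, 29 were higher and 30 lower (median -0.0025), with 3 higher and 1 lower at unadjusted p under 0.05, beside 4.49% and 3.98% of all tested probes. Nip7 and Brix1, both known from large subunit assembly in yeast, had 0.25 and 0.32, and Rcl1, of small subunit assembly, had -0.23. The other Brix1 probes had 0.22 and -0.13, and those of Rcl1 -0.24 and -0.16. Under median scaling the leading probes of Nip7, Brix1 and Rcl1 had 0.10, 0.16 and -0.38. None passed over all tested probes.

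In the list on transcription and silencing of ribosomal DNA, 20 probes of 14 genes were tested, 7 higher and 13 lower, with a median log2 difference of -0.060 beside -0.0030 for all tested probes. At unadjusted p under 0.05, 3 of the 20 probes were lower and 0 higher in deletion pools, where 3.98% and 4.49% of all tested probes were. They were those of Taf1c, a subunit of the RNA polymerase I selectivity factor (-0.40, limma adjusted p = 0.453), Polr1a, the largest polymerase I subunit (-0.50, adjusted p = 0.522), and Baz2a, a subunit of the nucleolar remodelling complex (-0.27, adjusted p = 0.556). The probes of Taf1c (mean 5.09 in deletion and 5.48 in control pools) and Baz2a (5.13 and 5.40) were close to background. Without background correction the differences of Taf1c, Polr1a and Baz2a were -0.10, -0.19 and -0.067. The other 3 tested Polr1a probes had 0.10, -0.032 and 0.018. Rrp8, which encodes nucleomethylin of the silencing complex that includes SIRT1, had no tested probe.

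Of 51 probes for 27 genes of mTORC1 and S6 kinase signalling, 27 were higher and 24 lower (median 0.0070), with 3 higher and 1 lower at unadjusted p under 0.05, beside 4.49% and 3.98% of all tested probes. Tsc1, an inhibitor of mTORC1, had -0.41 by 1 of its probes and -0.071, 0.064 and 0.071 by the others. Sesn1, a sestrin that inhibits mTORC1, had 0.28, with -0.22 and -0.19 by its other probes, and Lamtor4, a subunit of the lysosomal anchor of mTORC1, had 0.23. The limma adjusted p-values of these 3 genes were between 0.526 and 0.554. Without background correction the differences of Tsc1 and Sesn1 were -0.11 and 0.11, and that of Lamtor4 was 0.057 under median scaling. That of Tsc1 was -0.27 without SIRT1 deletion 2.

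All 10 ventromedial markers with a probe had a tested probe, and 2 of their 12 tested probes were higher and 10 lower in deletion pools. Nr5a1, which encodes SF1, was among the higher ones. It had 5.30, 5.72 and 5.46 in deletion pools and 5.11, 4.90 and 5.13 in control pools, close to background, a difference of 0.45 (95% interval 0.16 to 0.74, limma unadjusted p = 0.00687, adjusted p = 0.47) without overlap of the groups. Fezf1 had a difference of -0.095. Over the 12 tested probes the median log2 difference was -0.099 and the lowest -0.36. At unadjusted p under 0.05, 1 was higher and 1 lower, where 4.49% and 3.98% of all tested probes were. The lower probe had the list's lowest limma adjusted p (0.458). The sum of the marker list's normalised intensities was 26920 to 29186 in deletion pools and 29191 to 30559 in control pools. Of the neuronal markers, Nefl and Snap25 had no tested probe, and 2 of the 7 tested probes were higher and 5 lower. Astrocyte markers had 5 higher and 3 lower probes, oligodendrocyte markers 9 and 6, and microglial markers 4 and 4. The exocrine pancreas list was lower in the deletion pools in 16 of 17 tested probes, with summed intensities of 2968 to 3226 in deletion and 4493 to 5219 in control pools. Its Zg16, Try4 and Try5 were 3 of the 10 probes called on the array. Meningeal and fibroblast markers were lower in 10 of 11 tested probes, with sums of 803 to 1230 in deletion and 952 to 1678 in control pools. The part of these markers in the ribosomal protein values was not tested.

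Where the tract could be read, the 41 tested probes of the 29 genes with a pyrimidine run within 10 bases of an annotated start had a median log2 difference of -0.0019, and the 23 probes of the 19 genes without it had 0.049. The ranges were -0.30 to 0.26 and -0.10 to 0.19.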

How the data were processed

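Labelled cRNA from 6 RNA pools was hybridised to Illumina bead arrays, per the labels' protocols. The deposited table gives a mean signal, an intensity on a linear scale, and a detection p-value for each probe, per the file headers. The intensities were neither background-subtracted nor scaled between arrays, since the lowest signals lay between 104.0 and 111.6 and medians differed. The authors also deposited quantile-normalised intensities (median 134.4 in every column), and these served as an alternative. The scanner software is not stated. The arrays correlated at 0.989 to 0.995 over the tested probes.

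In R 4.3.3 with limma 3.58.1, neqc applied normexp background correction with the detection p-values, an offset of 16, quantile normalisation and log2. The offset compresses the differences of dim probes, and probes of the same rank on different arrays receive equal values. Each probe detected (p under 0.05) on 3 or more arrays was a feature, since the rule selects probes. The comparison used limma's lmFit and eBayes with Benjamini-Hochberg adjustment. The fit was tested on simulated data. With 3 against 3 pools an exact permutation p cannot go below 0.1, and the number of arrays limits the precision. Symbols come from the platform annotation (34885 probes with 1 symbol, 18 with several, 10378 with none), and all 65 member genes were found in RefSeq. Start-site sequences are from RefSeq's GRCm38.p6 promoter table. The files name no build, so probes have no coordinates.

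Members and lists were chosen with earlier results of these data known. Named probes are the 10 of lowest p in each direction, genes with probes of opposite sign more than 0.3 apart, paralogues, stalk proteins, Rpsa, and Rps6, Rps3, Rps19 and Rpl22, with the 3 probes of lowest p of each pathway list. Rpl5, Rpl10 and Rpl11, also in that rule, had no probe with their symbol. Python 3.11.15 with matplotlib 3.10.9 drew the figures.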

Additional observations from a re-analysis of the deposited data

How the results depend on the processing

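No member probe and no probe of the 4 pathway lists passed in any of the 19 alternatives, a threshold of 0.10 included. Of the 20 member probes of lowest p, 16 kept their sign in all alternatives that kept the probe, and under median scaling the signs of Rps9 (-0.031 and -0.075), Rpl21 (-0.0074) and Rplp1 (-0.14) turned negative. Median scaling shifted the median of all probes by -0.12, to medians of -0.15 for members, -0.16 for the large and -0.14 for the small subunit beside -0.12 for all probes. It gave 18 lower and 0 higher members at unadjusted p under 0.05, where 18.2% and 1.49% of all 20402 probes were (4017 in all), and 19 called probes in all. Higher members at unadjusted p under 0.05 numbered 4 with normexp without detection p-values, 6 without background correction, 5 in the authors' normalised table and 4 with a trend and robust prior. Called probes on the whole array, 10 in the main processing, numbered 17 with normexp without detection p-values, 16 with an offset of 50, 2 with detection p under 0.01 on all 6 arrays, 29 with a trend and robust prior and 17 at a threshold of 0.10. Without a filter 3374 probes had an unadjusted p under 0.05, against 1728, and the small subunit median was 0.016, and without background correction it was 0.017. The cause of these shifts was not tested. Leaving out 1 pool at a time gave 0 to 4 higher and 0 to 3 lower members, 1097 (without control 2) to 2824 (without SIRT1 deletion 1) probes at unadjusted p under 0.05, a large subunit median of -0.041 to 0.023 and a Sirt1 difference of -0.092 to 0.039, positive without SIRT1 deletion 3 (0.039) or control 1 (0.027). With the replicate number as a block, 0 members and 8 of all probes passed. Deviations of pools with the same number correlated at -0.078, -0.057 and -0.040, so no shared deviation was seen. With 3 pools per group, this cannot show whether pools of the same number were handled together. All 12 named pathway probes kept their sign, but the value of each moved by over 1.5 times in at least 1 alternative, for example Taf1c from -0.40 to -0.10 without background correction.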
